A study of Mus musculus with 8 samples.

Results

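The genes described here are the 35 mouse protein-coding genes whose symbol is Cdh or Pcdh followed directly by a digit, out of 21631 protein-coding genes on chromosomes 1 to 19 and X. They comprise 23 cadherins and 12 protocadherins that stand outside the clustered Pcdha, Pcdhb and Pcdhg arrays. The symbol rule used no measured value. H3K27ac, a histone mark of active promoters and enhancers, was mapped by ChIP-seq in primary neuronal cultures labelled CTX (cortex) or MGE (medial ganglionic eminence, the embryonic source of many cortical interneurons). All cultures came from C57/BL6 mice. On day 6 in vitro they received 1 µM TTX, which blocks sodium channels, together with 100 µM D-AP5, which blocks NMDA receptors, to quiet them overnight. On day 7 they were either depolarised with 55 mM KCl for 2 h or left without further treatment. The 4 groups were thus CTX with KCl, CTX unstimulated, MGE with KCl and MGE unstimulated, each with 2 libraries numbered 1 and 2, and the unstimulated groups carry the silencing agents too. The labels call the libraries biological replicates without saying which animals or cultures were kept apart, so p-values here reflect the spread of the libraries alone, part of which may be technical. CTX titles name embryonic day 14, whereas every library's source reads embryonic day 16, and MGE libraries too are entered as cortical neurons under cell type.

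Cadherins are calcium-dependent adhesion molecules whose outer repeats bind a like molecule on a neighbouring cell. Type I and type II classical cadherins bind catenins inside the cell, which link them to actin, and neurons carry combinations of type II cadherins that help sort cells and match synaptic partners. Unclustered protocadherins (δ1 and δ2 groups) adhere more weakly and recruit other partners to guide axon growth, cell movement and synapse formation.

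Each value below is the number of bases inside H3K27ac peaks within a gene's span and 20 kb to each side, divided by the total Mb inside peaks in the same library (bp per Mb called). A pair of values is always given in the order library 1, library 2. Long genes can hold more peaks, so densities are compared between genes only per kb of window. Being among the 6 genes with the highest mean in bp per Mb called chose genes for full values and is no comparison of density. The 8 lists held 36035 to 66827 peaks covering 21.1 to 44.7 Mb, and the read depth behind them is unknown. A single shortest peak of a list was worth 5.12 to 11.3 bp per Mb called, and a gene without peaks may still be acetylated. Summed over the 14 MGE and GABAergic marker genes, coverage was 1526 to 1773 bp per Mb called in CTX and 2504 to 2924 in MGE libraries. Over the 12 cortical glutamatergic markers it was 598 to 1032 in CTX and 361 to 507 in MGE. Lhx6, a defining MGE factor, was at 0 in 3 of the 4 CTX libraries and at 122 to 239 in MGE. By limma (adjusted p under 0.05), 7 of the 14 were higher in MGE and 0 lower. Of 9 glutamatergic markers tested, 7 were lower and 0 higher. Erbb4 alone ran from 231 to 325 in CTX and 705 to 867 in MGE. Not every marker followed: Gad1 (66.5 to 90.0 in CTX, 58.1 to 85.8 in MGE) and Sox6 (503 to 650, 428 to 580) ran lower in MGE. Bcl11b, of the glutamatergic list, ran higher (225 to 298, 266 to 386). KCl raised Fos from 72.6 and 76.5 to 190.2 and 149.5 bp per Mb called in CTX and from 73.1 and 77.6 to 189 and 183 in MGE (log2 difference over both cultures 1.14, SE 0.16, limma adjusted p = 0.00242). Npas4, another activity-induced factor, rose by 0.74 on the log2 scale over both cultures (SE 0.19, adjusted p = 0.0397).

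Peaks covered the promoters of some classical cadherins, Cdh6, Cdh12, Cdh18 and Cdh20 among them, in more CTX than MGE libraries. RefSeq (GRCm38.p6, the assembly behind mm10) lists a promoter window for 22 of the 35 genes, reaching from 250 bases before to 50 after a transcript start. Cdh1, Cdh2, Cdh3, Cdh4, Cdh5, Cdh11, Cdh13, Cdh16, Cdh17, Cdh19, Pcdh1, Pcdh11x and Pcdh12 have no entry. The 250 bases before the listed start are printed for 5 genes, 5′ to 3′ on the gene's own strand, chosen because peaks covered them in different sets of libraries. Capitals mark matches on either strand to 5 motifs. These were TGACGTCA for the CRE, TGANTCA for AP-1, GGGCGG for the GC box, TATAAA for the TATA box, and for the CCAAT box its own name. No match of one motif overlapped another, apart from the pair of GC boxes of Cdh6, which share bases.
Cdh6: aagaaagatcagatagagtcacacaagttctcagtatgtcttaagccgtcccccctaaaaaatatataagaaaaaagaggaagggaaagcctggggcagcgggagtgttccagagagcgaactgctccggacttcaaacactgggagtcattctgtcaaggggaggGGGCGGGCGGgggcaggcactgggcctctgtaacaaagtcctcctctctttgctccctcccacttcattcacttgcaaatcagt
Cdh12: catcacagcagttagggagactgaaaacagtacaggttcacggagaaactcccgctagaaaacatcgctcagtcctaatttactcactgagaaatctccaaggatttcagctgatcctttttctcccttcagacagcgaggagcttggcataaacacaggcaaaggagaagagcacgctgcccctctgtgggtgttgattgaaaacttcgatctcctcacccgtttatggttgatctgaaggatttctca
Cdh18: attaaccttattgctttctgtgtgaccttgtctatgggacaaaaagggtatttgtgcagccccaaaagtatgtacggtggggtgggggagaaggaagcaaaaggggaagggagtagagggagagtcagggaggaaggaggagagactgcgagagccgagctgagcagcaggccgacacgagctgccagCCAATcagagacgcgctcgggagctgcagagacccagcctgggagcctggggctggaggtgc
Cdh9: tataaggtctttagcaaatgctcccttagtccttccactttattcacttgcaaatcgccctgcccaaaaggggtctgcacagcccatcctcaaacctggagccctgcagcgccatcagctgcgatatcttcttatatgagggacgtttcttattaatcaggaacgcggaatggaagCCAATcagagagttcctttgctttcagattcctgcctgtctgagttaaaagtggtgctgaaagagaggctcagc
Pcdh15: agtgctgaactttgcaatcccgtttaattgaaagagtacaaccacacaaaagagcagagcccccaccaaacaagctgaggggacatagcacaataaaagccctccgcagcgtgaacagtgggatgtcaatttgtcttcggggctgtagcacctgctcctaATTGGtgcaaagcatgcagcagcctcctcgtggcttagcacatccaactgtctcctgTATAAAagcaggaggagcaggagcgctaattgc
Their positions are chr15:13173676-13173925 on the minus strand (Cdh6) and, on the plus strand, chr15:21111202-21111451 (Cdh12), chr15:23036213-23036462 (Cdh18), chr15:16728665-16728914 (Cdh9) and chr10:73821617-73821866 (Pcdh15). The listed starts of Cdh12, Cdh18 and Pcdh15 lie well inside their annotated gene spans. Cdh6 held 2 GC boxes, Cdh18 and Cdh9 a CCAAT box each, and Pcdh15 a CCAAT box and a TATA box. None of the 5 motifs was found in the 250 bases of Cdh12, which says only that these letters are absent there. Over 32841 listed promoters of the same length, 32.7% held the GC box, 33.9% the CCAAT box, 12.4% the TATA box, 6.75% AP-1 and 1.55% the CRE.

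The Cdh6 promoter window of 300 bases was covered over its full length in all 4 CTX libraries, over 90 bases in MGE KCl library 2 and not at all in the other 3 MGE libraries. For Cdh12 the covered bases numbered 244 and 300 in CTX KCl, 50 and 300 in unstimulated CTX, 0 and 221 in MGE KCl, and 0 in both unstimulated MGE libraries. Both windows were thus called in 4 CTX and 1 MGE library. The Cdh18 window was fully covered in all CTX and both MGE KCl libraries, and over 0 and 65 bases in unstimulated MGE. Cdh9 was the constant case, with 287 to 300 bases covered in every library. The listed Pcdh15 window was called in the MGE KCl libraries only, over 69 and 265 bases. Of the 22 genes with an entry, 3 (Cdh7, Cdh9 and Cdh22) had a listed promoter called in all 8 libraries and 5 (Cdh15, Cdh23, Cdh26, Pcdh10 and Pcdh20) in none. These shares of 13.6% and 22.7% compare with 24.8% and 45.4% of 17274 protein-coding genes, so the other 14 genes were called in some libraries and not in others.

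Of the 35 genes, 32 had a mean of at least 10 bp per Mb called and were tested, against 15537 of all genes. Cdh3 (P-cadherin) and Cdh5 (the endothelial VE-cadherin) had no peak in any library, and Cdh19 had 1 peak, in MGE KCl library 1 (18.8 bp per Mb called). The median gene span was 123 kb for the cadherins and 17.3 kb over all genes. Their median mean coverage was 79.2 bp per Mb called against 43.4 over all genes, whereas per kb of window it was 10.4 called bp against 16.5. Pcdh1 was the most densely covered at 58.2 called bp per kb of window (percentile 92.9 of all genes), followed by Cdh24 at 55.7 and Pcdh12 at 46.5. Among the genes with peaks in every library, Pcdh11x and Cdh12 were the least dense at 1.80 and 1.83. Part of the coverage at some genes lies inside a neighbouring gene: 99.1% of the called bases at Cdh1, 81.7% at Pcdh12, 80.8% at Cdh23, 73.8% at Cdh26, 59.9% at Cdh24 and 35.0% at Cdh16.

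**Figure D1:**
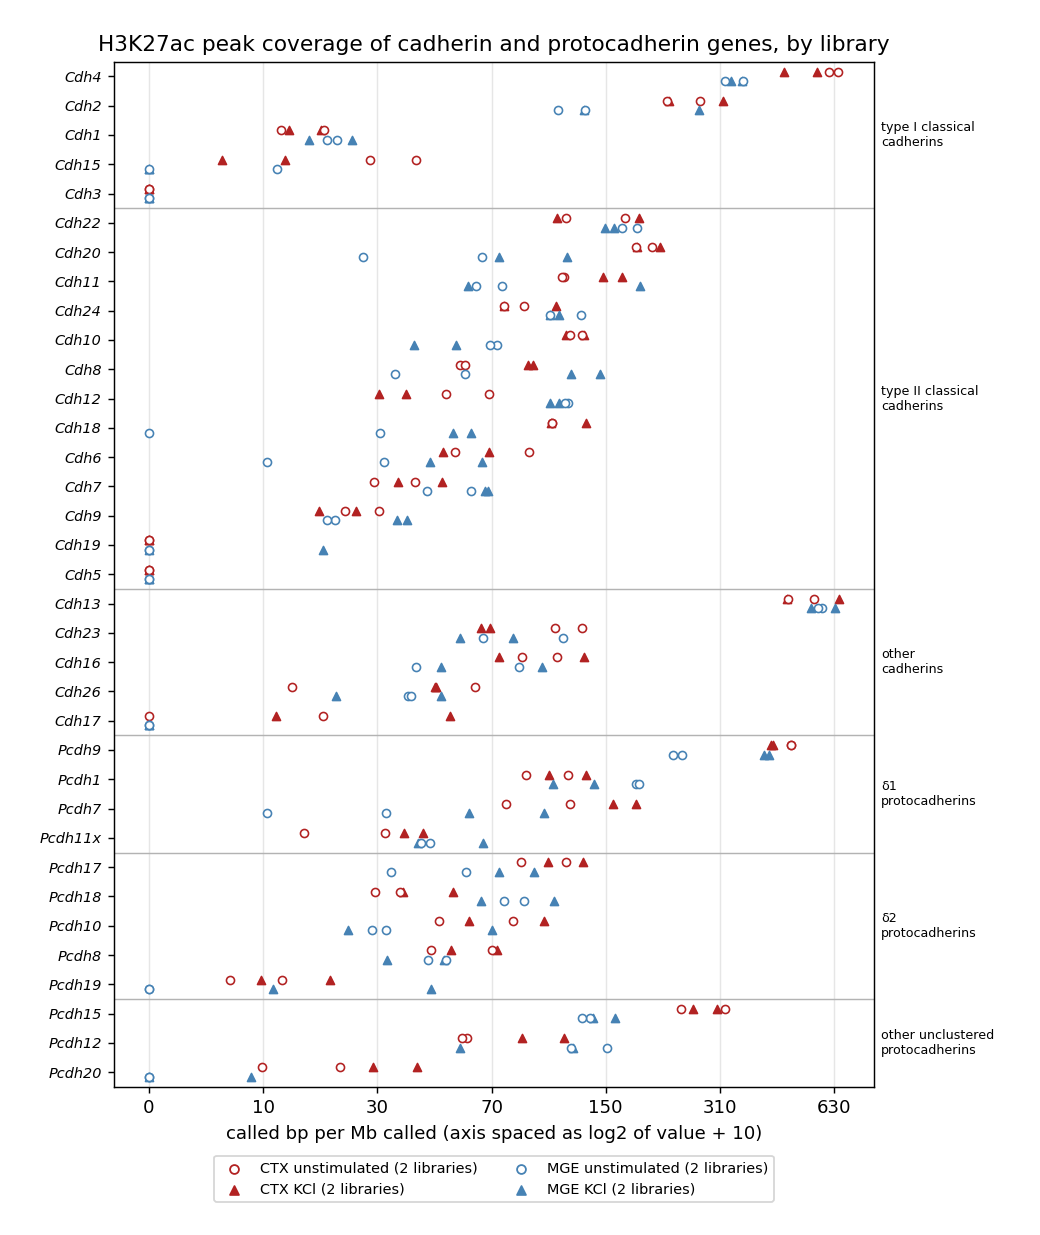
H3K27ac peak coverage of all 35 genes in bp per Mb called, on an axis spaced as log2 of the value plus 10, with 1 point per library, grouped by gene class. Red points are CTX and blue points MGE libraries; for Cdh4, Cdh20, Cdh10, Cdh18 and Pcdh15 all 4 red points lie above all 4 blue points, and for Cdh12 and Pcdh18 below.

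The first comparison asks how the cultures differ, with both treatments averaged. Coverage of 13 of the 32 tested cadherin and protocadherin genes was lower in MGE than in CTX cultures, that of 2 was higher, and 17 did not pass the test (limma on log2 of coverage plus 10, Benjamini-Hochberg adjusted over 15537 genes, threshold 0.05). Among the lower genes, Cdh15, Cdh17 and Pcdh20 reached the mean of 10 bp per Mb called through CTX alone. Their means were 21.8, 20.6 and 25.4 in CTX and 2.93, 0 and 2.15 in MGE. The filter thus admitted them by the culture in which they were then higher, so their calls add little to the count. Over all tested genes 23.7% passed, 10.8% higher and 12.9% lower in MGE. The median log2 difference, MGE minus CTX, was -0.44 for the 32 tested genes and 0.12 over all genes. The difference was above 0 for 37.5% of these genes and 60.0% of all. With the lists trimmed to equal called bases the medians were -0.22 and -0.13, and 44.8% of these genes and 35.4% of all were above 0. Without division by the called Mb the medians were -0.85 and -0.30, with 12.5% and 19.4% above 0. The gap between these genes and all genes thus depended on the scaling. The number of cells of a type and the acetylation per cell cannot be told apart in bulk cultures. Markers of other cell types also differed between the cultures. Summed coverage of 8 astrocyte markers was 531 to 694 in CTX and 272 to 525 in MGE, and that of 8 oligodendrocyte lineage markers 584 to 749 and 241 to 343. That of 8 neural progenitor markers was 815 to 903 and 302 to 556, and 3, 5 and 5 markers of these lists were lower in MGE by the same test. The oligodendrocyte marker Mog was higher in MGE (63.3 to 102 in CTX and 96.0 to 162 in MGE, adjusted p = 0.0480). Summed coverage of 8 endothelial and mural markers was 180.1 to 317 in CTX and 158 to 235 in MGE, with Cldn5, Tek and Kdr at 0. Of these, 1 was lower in MGE, Pecam1 (106 to 151 in CTX and 43.5 to 94.8 in MGE). Summed coverage of 8 microglial markers was 163 to 239 in CTX and 247 to 392 in MGE, with Cx3cr1 at 0. Of these, 1 was higher in MGE, Csf1r (0 in every CTX library and 31.3 to 77.7 in MGE). The part of these cell types in the results was not tested.

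Among the type I classical cadherins, 3 of 4 tested genes were lower in MGE. Cdh4 (R-cadherin) measured 462 and 566 in CTX KCl, 645 and 609 in unstimulated CTX, 332 and 356 in MGE KCl and 319 and 358 in unstimulated MGE. Every CTX library lay above every MGE library, with means of 570.3 ± 79.1 and 341 ± 18.9 (SD, n = 4 each). The log2 difference was -0.72 (SE 0.13, adjusted p = 0.000722), and an exact permutation test of the 8 libraries gave p = 0.0286, the smallest that 4 against 4 allows. Each set of 4 holds 2 KCl and 2 unstimulated libraries, so its SD includes any difference between treatments. The permutation treats all 8 libraries as independent, which the labels do not state. Without division by the called Mb the call was lost (adjusted p = 0.0584). Cdh2 (N-cadherin, the main type I cadherin of neurons and neural progenitors) measured 224 and 315 in CTX KCl, 223 and 273 in unstimulated CTX, 130.4 and 272 in MGE KCl, and 109.9 and 131 in unstimulated MGE. MGE KCl library 2 reached the CTX range while the other 3 MGE libraries lay below it. The log2 difference was -0.73 (SE 0.21, adjusted p = 0.0178), and the call was lost on leaving out CTX KCl library 2, unstimulated CTX library 2, MGE KCl library 1 or unstimulated MGE library 1 (adjusted p 0.0551 to 0.141). It was also lost with equal called bases, without division, after centring on the library median and without limma's trend (adjusted p 0.0534 to 0.1101).
Cdh15 (M-cadherin, known from muscle) was near the floor, at 12.9 and 5.55 in CTX KCl, 28.2 and 40.6 in unstimulated CTX, 0 in both MGE KCl libraries, and 11.7 and 0 in unstimulated MGE. Its log2 difference of -1.25 (SE 0.37, adjusted p = 0.0217) became 0.09 with 50 kb to each side, and the call was lost without CTX KCl library 1, unstimulated CTX library 2 or unstimulated MGE library 2 (adjusted p 0.0565 to 0.0825). Without division it was lost as well (0.0543). Cdh1 (E-cadherin, the epithelial form) did not pass.

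The type II classical cadherins moved both ways, with 4 of 11 tested genes lower and 1 higher in MGE. Cdh20 measured 183 and 212 in CTX KCl, 182 and 202 in unstimulated CTX, 73.9 and 117 in MGE KCl, and 65.5 and 26.6 in unstimulated MGE. The groups did not overlap, the CTX mean was 2.76 times the MGE mean, and the log2 difference was -1.47 (SE 0.22, adjusted p = 0.000246). Cdh10 measured 116 and 129.9 in CTX KCl, 128 and 119 in unstimulated CTX, 54.3 and 39.8 in MGE KCl, and 72.7 and 69.2 in unstimulated MGE. The CTX values were close to each other and again all above MGE (log2 difference -0.97, SE 0.18, adjusted p = 0.000973). Cdh18 measured 105 and 132 in CTX KCl, 106 and 105 in unstimulated CTX, 53.3 and 60.6 in MGE KCl, and 0 and 30.5 in unstimulated MGE. Its CTX mean was 3.11 times the MGE mean (log2 difference -1.73, SE 0.33, adjusted p = 0.00127), and unstimulated MGE library 1 held no peak at the gene at all. With equal called bases the call was lost (adjusted p = 0.0591).
Cdh6 measured 69.0 and 49.7 in CTX KCl, 90.7 and 54.2 in unstimulated CTX, 45.0 and 65.7 in MGE KCl, and 10.5 and 31.8 in unstimulated MGE. The cultures overlapped through MGE KCl library 2, while the other 3 MGE libraries lay below every CTX library, and the call was marginal (log2 difference -0.77, SE 0.27, adjusted p = 0.0467). It was lost in 6 of the 8 fits that left out a library, with the exception of MGE KCl library 2 and unstimulated MGE library 2 (adjusted p 0.0570 to 0.198), and in 8 of the 14 other alternatives (0.0544 to 0.153).

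Cdh12 was the type II gene higher in MGE. It measured 37.5 and 30.4 in CTX KCl, 50.6 and 68.6 in unstimulated CTX, 110.2 and 104 in MGE KCl, and 117 and 115 in unstimulated MGE. The 4 MGE libraries lay close together and above every CTX library, at 2.39 times the CTX mean (log2 difference 1.14, SE 0.19, adjusted p = 0.000412). Without division by the called Mb, or with the lists trimmed to equal called bases, the direction was kept and the call was not (adjusted p 0.118 and 0.490). The promoter printed above moved the other way: the region over the listed start, chr15:21110231-21111635, was called in all 4 CTX libraries and in MGE KCl library 2 alone. An MGE-only region of 1822 bp, chr15:20666651-20668472, held 28.5% to 65.7% of the gene's called bases in the MGE libraries, with 1555 and 952 in MGE KCl and 1468 and 1099 in unstimulated MGE. It lies 443 kb from the listed start within the span of Cdh12 and shares 100 bases with the nested gene Acot10. Cdh12 was also called with bases in other genes left out. That setting drops 1.75% of the called bases at Cdh12 and keeps nearly all of this region, so it cannot show which gene the region belongs to. Another region, chr15:21179682-21180575 (894 bp), was called in the 4 CTX libraries and in no MGE library. Cdh12 thus carried separate regions in each culture, as the map of peaks shows.

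**Figure D2:**
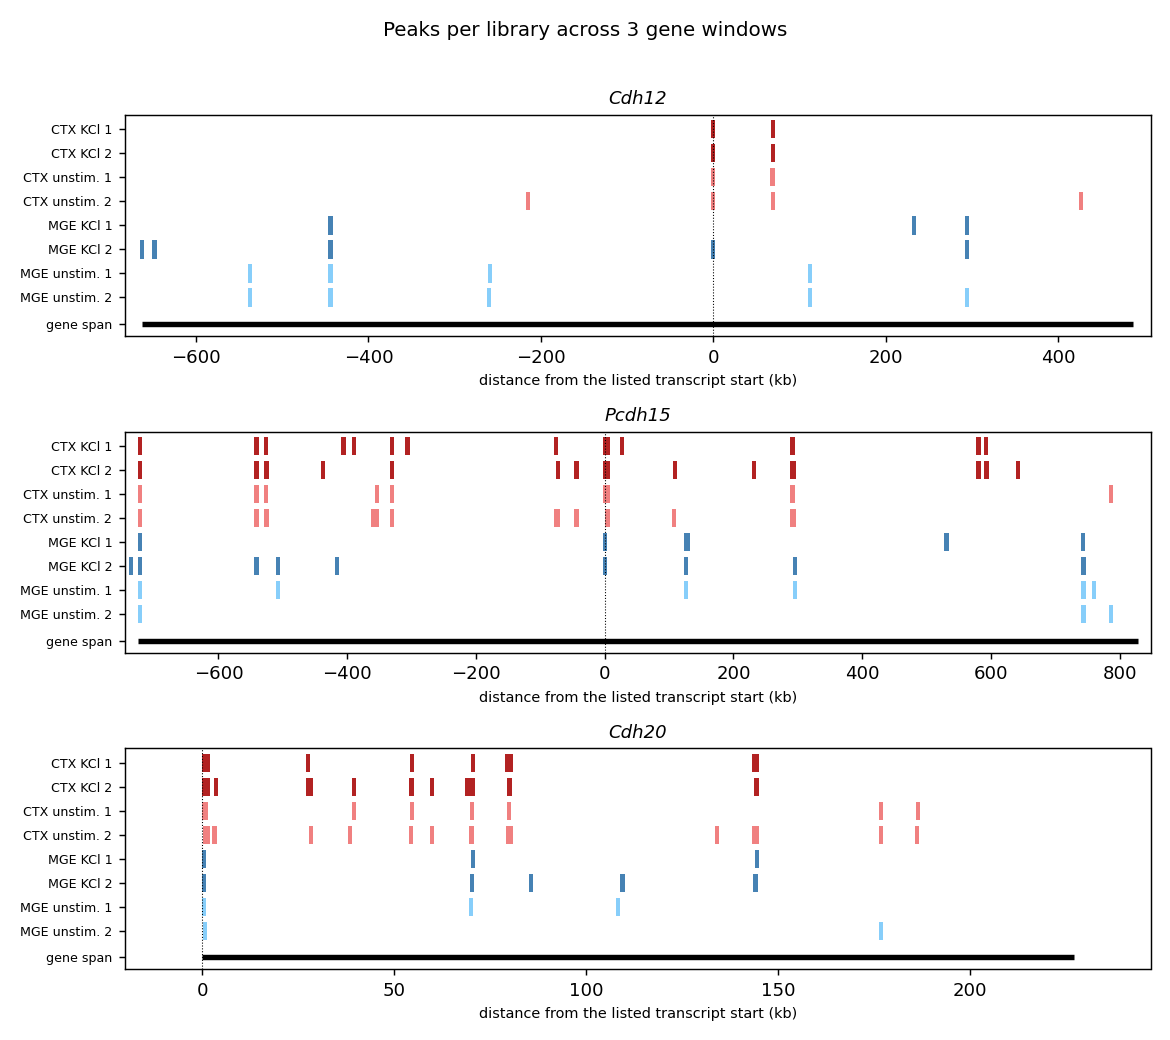
Peaks in each of the 8 libraries across the windows of Cdh12, Pcdh15 and Cdh20, by distance in kb from the listed transcript start (dotted line), with the gene span as a black bar; dark boxes are KCl and pale boxes unstimulated libraries, red CTX and blue MGE, and short peaks are widened to stay visible. Cdh12 has a blue column 443 kb before its listed start that no CTX library shares, and Pcdh15 and Cdh20 have several columns that only red rows show.

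The remaining type II genes did not pass. Cdh22, one of the 6 genes with the highest mean in bp per Mb called, measured 109 and 185 in CTX KCl, 116 and 169.9 in unstimulated CTX, 149 and 158 in MGE KCl, and 183 and 167 in unstimulated MGE. Its groups overlapped, with a log2 difference of 0.20 (SE 0.19, adjusted p = 0.466). That sign turned to -0.07 over the gene span alone and -0.26 without division by the called Mb, and with equal called bases the difference was 0.99 (adjusted p = 0.00944). Cdh7 ran from 29.3 to 49.2 in CTX and 44.0 to 68.3 in MGE libraries, and 94.9% of its called bases lay within regions reaching to 2 kb of a listed start.

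Of the 5 other cadherins, 1 was lower in MGE. Cdh17 (known from intestine) was listed at 0 in all 4 MGE libraries, and measured 52.2 and 11.6 in CTX KCl and 0 and 18.7 in unstimulated CTX. With so few peaks the fitted log2 difference of -1.32 (SE 0.45, adjusted p = 0.0461) depends on the pseudocount. It became 0.39 with 50 kb to each side, and leaving out any library but CTX KCl 2 or unstimulated CTX 1 ended the call (adjusted p 0.0652 to 0.181). A pseudocount of 2, no division, centring and the replicate block ended it too (0.0593 to 0.0946). Cdh13 (T-cadherin, anchored in the membrane by a lipid and lacking a catenin-binding tail) had the highest mean in bp per Mb called over a window of 1225 kb, and 13.7 called bp per kb of window (percentile 44.2 of all genes). It measured 471 and 649.5 in CTX KCl, 474 and 555 in unstimulated CTX, 634 and 547 in MGE KCl, and 584 and 571 in unstimulated MGE. The groups overlapped (log2 difference 0.13, SE 0.13, adjusted p = 0.512), with a sign that turned to -0.35 without division and a call at 0.83 with equal called bases (adjusted p = 0.00537). Beneath this like total, Cdh13 held 5 CTX-only and 4 MGE-only regions.

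Among the δ1 protocadherins, 2 of 4 were lower in MGE. Pcdh7 measured 157 and 183 in CTX KCl, 77.5 and 119 in unstimulated CTX, 59.7 and 100.2 in MGE KCl, and 10.5 and 32.3 in unstimulated MGE. The cultures overlapped only between CTX unstimulated and MGE KCl libraries (log2 difference -1.44, SE 0.25, adjusted p = 0.000665). Pcdh9, which spans 879 kb, measured 426 and 432 in CTX KCl, 483 and 483 in unstimulated CTX, 419.7 and 407 in MGE KCl, and 244 and 231 in unstimulated MGE. The groups did not overlap, and the MGE KCl libraries lay just below the CTX KCl ones (log2 difference -0.52, SE 0.12, adjusted p = 0.00505). The call was lost with equal called bases (adjusted p = 0.196), without division (0.0714) and without limma's trend (0.0510).

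Of the δ2 protocadherins, 1 of 5 was higher and 1 lower in MGE. Pcdh18 measured 36.9 and 53.2 in CTX KCl, 29.4 and 35.8 in unstimulated CTX, 65.1 and 107 in MGE KCl, and 76.0 and 87.2 in unstimulated MGE. All MGE libraries lay above all CTX libraries (log2 difference 0.94, SE 0.22, adjusted p = 0.00481), and without division the call was lost (0.348). The region over its start was called in every library, and 2 regions 11.1 and 11.97 kb from it were called in CTX KCl library 2 as the sole CTX library and in 3 and 2 MGE libraries. Pcdh17 measured 103 and 129 in CTX KCl, 115 and 85.4 in unstimulated CTX, 93.5 and 73.7 in MGE KCl, and 58.7 and 33.5 in unstimulated MGE. The groups overlapped through MGE KCl library 1 (log2 difference -0.72, SE 0.21, adjusted p = 0.0191). Over the gene span alone its log2 difference was -0.29 (adjusted p = 0.389), with equal called bases -0.22 (0.575), and the call was lost without CTX KCl library 2, unstimulated CTX library 1, MGE KCl library 2 or unstimulated MGE library 2 (adjusted p 0.0655 to 0.107).

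Of the other unclustered protocadherins, 2 of 3 were lower in MGE. Pcdh15, known with Cdh23 for the tip link of inner-ear hair cells, measured 304 and 261 in CTX KCl, 321 and 242 in unstimulated CTX, 138 and 159 in MGE KCl, and 135 and 129 in unstimulated MGE. The CTX mean was 2.01 times the MGE mean with no overlap (log2 difference -0.95, SE 0.15, adjusted p = 0.000347). The lower coverage was spread along the gene: 7 regions were called in all CTX and no MGE libraries, the most of any of the 35 genes, and 1 the reverse. Regions within 2 kb of its listed start held 3.55% of its called bases, against a median of 49.4% over the 22 genes with a listed start. That start lies well inside the annotated span, and its promoter window was called in MGE KCl libraries only. The gene's window is also 1594 kb long, so this share is not comparable with that of shorter genes. Pcdh20 measured 29.1 and 40.9 in CTX KCl, 21.8 and 9.83 in unstimulated CTX, 0 and 8.58 in MGE KCl, and 0 in both unstimulated MGE libraries. A single peak in a single MGE library stood against peaks in all CTX libraries (log2 difference -1.52, SE 0.35, adjusted p = 0.00521). Pcdh20 passed the filter on the mean through its CTX libraries alone.

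**Figure D3:**
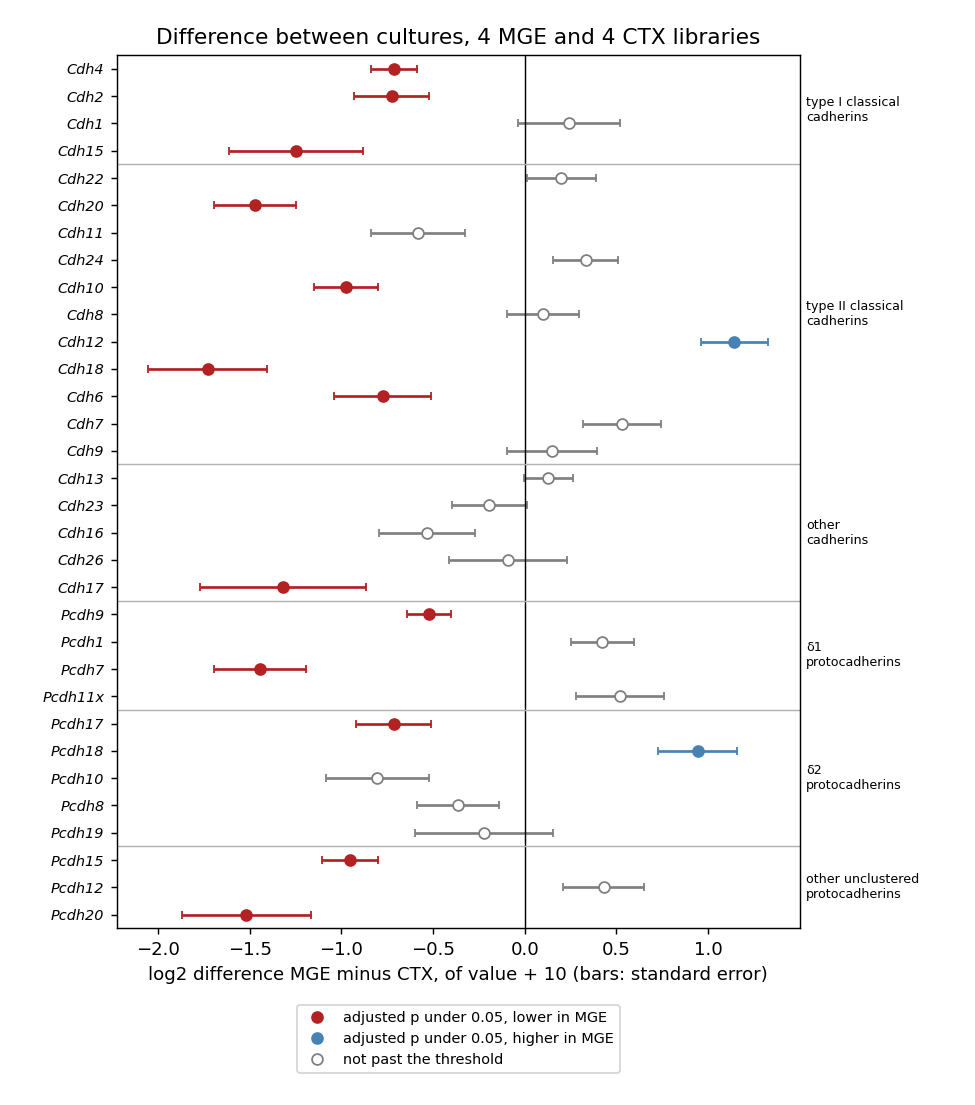
Fitted log2 difference MGE minus CTX of coverage plus 10 for the 32 tested genes by class, with standard errors; filled points passed an adjusted p of 0.05. The 13 red points lie left of 0 and the blue points, Cdh12 and Pcdh18, right of it.

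In 9 genes the 4 MGE and the 4 CTX libraries did not overlap: Cdh12 and Pcdh18 were above, against 10.6% of all tested genes, and Cdh4, Cdh10, Cdh18, Cdh20, Pcdh9, Pcdh15 and Pcdh20 below, against 10.2%. Pcdh20 was among the tested genes through its CTX libraries alone. Keeping only peaks with a −log10 q of at least 5 left 0 of 28 tested cadherin genes called by limma (11 at an unadjusted p under 0.05) and 328 of 14223 genes. With no division by the called Mb, 0 were higher and 8 lower, and with equal called bases 3 were higher and 7 lower.

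Merging the peaks of the 8 lists gave 511 regions in the windows of these genes, of which 452 lay inside a gene span. Only 36 (7.05%) were called in all 8 libraries, against 15.3% of regions over all gene windows, and 211 (41.3%) in a single library, against 34.9%. CTX-only regions, called in 4 CTX and 0 MGE libraries, numbered 34 (6.65%, against 4.36%) and came from 15 genes, led by Pcdh15 with 7 and Cdh4 and Cdh13 with 5 each. MGE-only regions numbered 13 (2.54%, against 2.39%) in 6 genes, led by Cdh13 with 4 and Pcdh9 with 3. The longest lists were those of CTX, and the part of list length in these counts was not tested. Among the regions with a listed start in the same gene, 1 of 23 CTX-only and 0 of 7 MGE-only regions lay within 2 kb of it, against 13 of 20 regions called in all 8 libraries. The culture-restricted regions were thus nearly all away from listed starts, but this was not particular to them. Of regions called with KCl alone, 1 of 13 in CTX and 3 of 11 in MGE lay within 2 kb of a listed start. Of those called without KCl alone, 0 of 8 in CTX and 0 of 5 in MGE did. The authors' fold enrichment of peaks in the CTX-only regions ran from 2.22 to 4.94 and in the MGE-only regions from 2.59 to 4.61.

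The longest CTX-only regions lay at Cdh4 (chr2:179518070-179519733, 1664 bp), Cdh13 (chr8:118611099-118612690, 1592 bp) and Cdh20 (chr1:104847738-104849307, 1570 bp), all inside the gene span. The Cdh20 region, 79.2 kb from the listed start, held 837 and 1488 called bases in CTX KCl and 245 and 817 in unstimulated CTX. Another CTX-only region of Cdh20, chr1:104822620-104823482, lay 54.1 kb from the start, whereas the region over the start itself was called in all 8 libraries with 1462 to 2045 bases in CTX and 255 to 1046 in MGE. The longest MGE-only regions lay at Cdh13 (chr8:118951738-118953623, 1886 bp), Cdh12 (given above) and in the flank of Cdh22 (chr2:165105218-165106952, 1735 bp). At Cdh13 the MGE-only region held 1406 and 1565 called bases in MGE KCl and 1749 and 1131 in unstimulated MGE.

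For KCl in CTX cultures limma called 0 of the 32 genes, with 6 at an unadjusted p under 0.05, against 0.238% of all tested genes called. The KCl libraries lay above the unstimulated ones for 7 genes and below for 5, against 23.4% and 12.9% of all tested genes, and 2 libraries against 2 cannot reach an exact p under 0.05. Cdh8, Pcdh7, Pcdh11x, Pcdh12, Pcdh18, Pcdh20 and Cdh11 were in the first set, and Cdh4, Cdh12, Cdh15, Cdh23 and Pcdh9 in the second. The largest of these differences were -1.22 for Cdh15 (SE 0.52, adjusted p = 0.375), 0.83 for Pcdh20 (SE 0.50, adjusted p = 0.618), 0.76 for Pcdh7 (SE 0.35, adjusted p = 0.440) and -0.73 for Cdh23 (SE 0.29, adjusted p = 0.330) on the log2 scale. Cdh23 measured 69.1 and 65.1 in CTX KCl, 107 and 128 in unstimulated CTX, 81.1 and 56.1 in MGE KCl, and 113 and 66.0 in unstimulated MGE. Most of those bases lie in neighbouring genes. The Cdh15 difference was 0.02 with 50 kb to each side, and that of Pcdh7 was -1.30 at a −log10 q of at least 5.

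KCl in MGE cultures raised 3 of the 32 genes and lowered none, against 1.79% of all tested genes raised and 0.727% lowered (2.52% called in all). Cdh23 was called as lower over its gene span alone (log2 difference -2.24, adjusted p = 0.0185) and with bases in other genes left out (0.0378). Both ways it was listed at 0 in the MGE KCl libraries and measured 66.7 and 19.2 in the unstimulated ones, so the fitted size depends on the pseudocount. Cdh8, a type II cadherin, went from 34.5 and 58.0 bp per Mb called in unstimulated MGE to 119.8 and 145 with KCl (log2 difference 1.36, SE 0.27, adjusted p = 0.0182). Its CTX values were 55.9 and 58.0 unstimulated and 92.8 and 89.9 with KCl, so all 4 KCl libraries lay above all 4 unstimulated ones. Pcdh7 went from 10.5 and 32.3 to 59.7 and 100.2 (log2 difference 1.58, SE 0.35, adjusted p = 0.0290), and its KCl libraries were also the higher pair in CTX, at 157 and 183 against 77.5 and 119. Pcdh9 went from 244 and 231 to 419.7 and 407, a ratio of 1.74 (log2 difference 0.78, SE 0.17, adjusted p = 0.0269), whereas in CTX both KCl libraries lay below both unstimulated ones.
These 3 calls were not stable to leaving out a library. Cdh8 was called in 3 of 8 such fits, Pcdh9 in 2 and Pcdh7 in 1. Without CTX KCl library 1, CTX KCl library 2 or MGE KCl library 1 none of the 3 remained (adjusted p 0.0547 to 0.131), and without MGE KCl library 2 or unstimulated MGE library 1 the 1 gene called was Pcdh19 or Cdh20, in that order. For Cdh8 the adjusted p was 0.0926 and 0.116 in those last fits. The direction of each was kept in every fit without a library. The Pcdh7 difference was 0 at a −log10 q of at least 5. With equal called bases all 3 calls were lost (adjusted p 0.103 to 0.459) and Cdh20 was called (0.0453), and without division all 3 were lost as well (0.334 to 0.518). Those of Pcdh7 and Pcdh9 were also lost after centring and without limma's trend (0.0717 to 0.146), and that of Pcdh7 with a pseudocount of 2, no filter and the gene span alone (0.0560 to 0.0918).

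**Figure D4:**
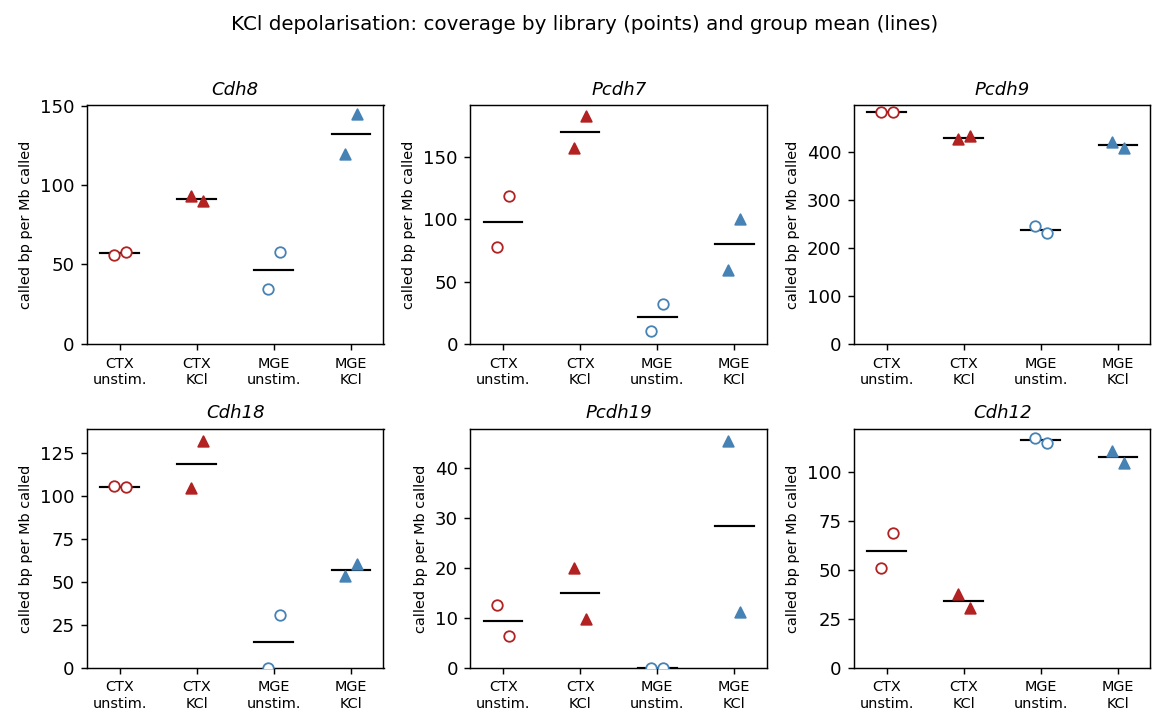
Coverage in bp per Mb called of 6 genes by group, 1 point per library with the group mean as a line, axes from 0. Cdh8 and Pcdh7 are higher with KCl in both cultures, Pcdh9 is higher with KCl in MGE and lower in CTX, and Cdh12 is higher in MGE under both treatments.

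Other genes of the MGE comparison did not pass. Cdh18 went from 0 and 30.5 to 53.3 and 60.6 (log2 difference 1.73, SE 0.46, adjusted p = 0.0603), and it was called without unstimulated MGE library 2, where 1 library at 0 stands alone (adjusted p = 0.00190), with a pseudocount of 50 (0.0231) and with the filter at a mean of 30 (0.00592). Pcdh19, an X-linked δ2 gene tied to a form of epilepsy, was listed at 0 in both unstimulated MGE libraries and measured 45.5 and 11.2 with KCl, and in CTX 20.04 and 9.77 with KCl and 12.5 and 6.36 unstimulated. Its fitted log2 difference in MGE was 1.78 (SE 0.53, adjusted p = 0.0929), and it was called without MGE KCl library 2 (adjusted p = 0.0345). The KCl libraries lay above the unstimulated ones for 11 genes and below for 4 (Cdh10, Cdh12, Cdh22 and Pcdh1), against 22.9% and 20.3% of all tested genes. The 11 were Cdh6, Cdh7, Cdh8, Cdh9, Cdh18, Cdh20, Pcdh7, Pcdh9, Pcdh15, Pcdh17 and Pcdh19. Vim, a progenitor and glial marker, rose with KCl in MGE from 0 in both libraries to 28.4 and 46.8 (adjusted p = 0.00974), and Slc1a2, an astrocyte marker, from 61.3 and 65.9 to 155 and 160.0 (adjusted p = 0.0215). Flt1, an endothelial marker, fell with KCl in CTX from 90.2 and 51.6 to 0 in both (adjusted p = 0.0154). Each of these was the 1 called gene of its list of 8 markers in that comparison. In MGE the KCl difference was above 0 for 6 of 8 progenitor and 5 of 8 astrocyte markers. Gfap, an astrocyte marker, went from 77.3 and 66.9 to 57.6 and 68.6. Among 4 tested endothelial and mural markers in CTX, it was above 0 for 1. The part of these cells in the KCl results was not tested.

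Averaged over both cultures, KCl raised Cdh8 (log2 difference 0.98, SE 0.19, adjusted p = 0.0116) and Pcdh7 (1.17, SE 0.25, adjusted p = 0.0181), 2 of 32 genes against 3.31% of all tested genes raised and 1.51% lowered (4.83% called in all). Without CTX KCl library 1, CTX KCl library 2 or unstimulated CTX library 1 neither passed (adjusted p 0.0636 to 0.146). Pcdh7 turned to -0.65 at a −log10 q of at least 5. With equal called bases Cdh20, Pcdh18 and Pcdh19 were called instead of both. Cdh23 was called as lower over its gene span alone (-1.87, adjusted p = 0.00761) and with bases in other genes left out (-1.93, 0.0148). Cdh8 and Pcdh7 were also the genes whose KCl libraries lay above the unstimulated ones in both cultures (2 of 32, against 9.83%), and Cdh12 was the single gene below in both (against 4.89%). The response to KCl differed between the cultures for 0 of 32 genes by limma (5 at an unadjusted p under 0.05), against 0.0386% of all tested genes. Pcdh9 had the smallest p of these genes, with a difference of responses of 0.94 on the log2 scale (SE 0.24, adjusted p = 0.267). Leaving out unstimulated MGE library 2 gave 1 called gene, Cdh18.

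**Figure D5:**
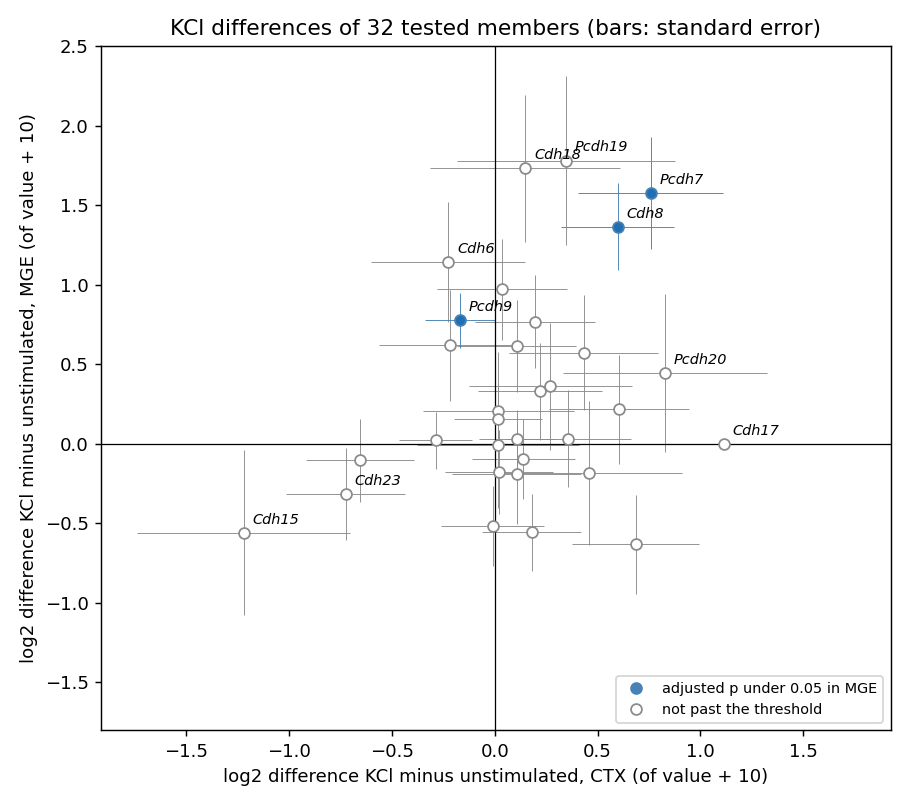
Log2 differences KCl minus unstimulated of coverage plus 10 in CTX (horizontal) and MGE (vertical) for the 32 tested genes, with standard errors; filled points passed an adjusted p of 0.05 in MGE. Cdh8 and Pcdh7 lie at upper right, Pcdh9 at upper left, and the points of Cdh18 and Pcdh19 are high in MGE without passing.

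At the level of regions, 21 were called in both KCl and no unstimulated libraries of CTX, and 21 in MGE (4.11% each, against 4.77% and 4.62% over all gene windows). The reverse pattern held for 14 regions in CTX and 9 in MGE (2.74% and 1.76%, against 2.82% and 1.95%). Both sets of shares were close to those of all gene windows. In both cultures at once, 2 regions (0.391%, against 0.664%) were called with KCl alone: chr8:118343579-118344167 in Cdh13 (589 bp) and chr14:93575007-93575473 in Pcdh9 (467 bp, 315 kb from the listed start). In Pcdh9 it held 299 and 444 called bases in CTX KCl and 455 and 318 in MGE KCl. Pcdh7 had a merged region that reaches its listed start, chr5:57718080-57719536, with 1212 and 1457 called bases in CTX KCl, 404 and 705 in unstimulated CTX, 987 and 1232 in MGE KCl, and 0 in both unstimulated MGE libraries. The listed promoter window itself was called in 1 library, CTX KCl 2, over 60 bases. At Cdh8, the region 0.103 kb from the listed start, chr8:99414429-99416368, held 1525 and 1462 in CTX KCl, 251 and 1308 in unstimulated CTX, 631 and 1836 in MGE KCl, and 0 and 957 in unstimulated MGE. A further Cdh8 region, 211 kb away at chr8:99204277-99205161, held 764 and 848 in MGE KCl, 241 and 264 in unstimulated MGE, and in CTX 229 in a single KCl library. The other longest regions called with KCl alone in MGE lay at Cdh13 (chr8:118725992-118727575, 1584 bp) and Cdh20 (chr1:104911893-104913440, 1548 bp). In CTX they lay at Cdh13 (chr8:119034835-119036091, 1257 bp), Cdh4 (chr2:179480825-179481987, 1163 bp) and Cdh11 (chr8:102697816-102698930, 1115 bp). These patterns hold within the named culture only. The Cdh20 region also held 857 called bases in unstimulated CTX library 2, and the Cdh4 region 281 in unstimulated MGE library 2. The longest called without KCl alone were at Cdh13 (chr8:118339197-118340180), Cdh18 (chr15:23334414-23335355) and Pcdh15 (chr10:73467926-73468744) in CTX, and at Cdh13 (chr8:118163257-118164182), Pcdh10 (chr3:45381413-45382083) and Cdh12 (chr15:20851494-20852113) in MGE. The Cdh13 region named for CTX held 390 and 249 bases in MGE KCl. That named for MGE held 747 and 458 in CTX KCl, and the Pcdh10 region 550 in CTX KCl library 2.

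Genes that act with the cadherins were described from a separate list. Of 18 catenin and junction partner genes, 2 were higher and 3 lower in MGE, with a median log2 difference of 0.06. Of 22 other cadherin superfamily genes, 18 were tested, 3 were higher and 4 lower, with a median of -0.29. Dchs2, a giant cadherin of the Fat and Dachsous pathway, measured 107 and 88.2 in CTX KCl, 139 and 119.9 in unstimulated CTX, 292 and 253 in MGE KCl, and 271 and 262 in unstimulated MGE (log2 difference 1.19, SE 0.15, adjusted p = 5.47e-05). Fat4, another giant cadherin, was lower in MGE, at 93.0 to 154 in CTX and 35.8 to 59.5 in MGE (log2 difference -1.20, SE 0.21, adjusted p = 0.000756). Ctnna3, which encodes an α-catenin, ran from 162 to 246 in CTX and 66.7 to 97.8 in MGE (log2 difference -1.16, SE 0.18, adjusted p = 0.000335), and the desmosomal Dsc3 from 34.02 to 47.0 and 0 to 21.1 (log2 difference -1.60, SE 0.27, adjusted p = 0.000525). KCl in MGE raised Ctnna2, the neuronal α-catenin, from 418 and 345 to 679 and 639.8 (log2 difference 0.78, SE 0.18, adjusted p = 0.0335), and it was the 1 partner gene of either list called there. In CTX the same gene measured 361 and 416 with KCl and 371 and 427 unstimulated. Over both cultures KCl raised Fat3 (log2 difference 0.80, SE 0.20, adjusted p = 0.0392).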

How the data were processed

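The files were 8 lists of broad H3K27ac peaks, called separately in each library on mm10. The submitters' processing notes name Bowtie2 2.3.3, MACS3 3.0.0a7, deepTools 3.4.3 and cutadapt 1.18. Roles, settings and any input control: not given in the sources used here. As the authors deposited them, peaks carry a display score, a fold enrichment (a linear ratio) and −log10 values of p and q. These belong to the single peak and served to describe it or to select peaks by strength. The weakest peak of each list had a −log10 q of 1.30 to 1.35. Outside chromosomes 1 to 19 and X, 29 peaks were not used.

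From the positions, called bp in each gene span (GRCm38.p6) and 20 kb to each side were divided by the library's called Mb. All genes with a mean of at least 10 were fitted with limma 3.58.1 in R 4.3.3 on log2(value + 10), with 4 group means, eBayes with trend and 4 residual degrees of freedom shared over the 8 libraries, in 5 contrasts. Fold changes are on that scale and understate changes of low genes. Benjamini-Hochberg adjustment ran over 15537 genes, with a threshold of 0.05. Other steps used Python 3.11.15, and the fit was tested on simulated data. The check of shared replicate numbers is given with the replicate block.

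The genes, lists and tests were chosen with earlier results of these data known. Values in every library were given for genes called in any contrast, the 6 with the highest mean, and, per culture, the 4 with the largest KCl difference among genes with non-overlapping libraries. To these were added the 4 with the largest culture difference in each direction whose libraries do not overlap. Of partner genes at most 4 per contrast were named by adjusted p, and of regions the 3 longest of each kind, leaving out chromosome 18. Alternatives changed the pseudocount, filter, window, peak threshold, scaling, region rule, block, trend and set of libraries.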

Additional observations from a re-analysis of the deposited data

Results flagged for a closer look

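In 4 of 30 groups of 4 libraries, a library stood apart from the other 3 of its culture. The rule flags about 1 in 20 groups of normally distributed values. That rate does not apply strictly here, since each group mixes KCl and unstimulated libraries and the genes were chosen as called. A lone value beside zeros, as at Pcdh20 and Cdh15 in MGE, is always flagged. A group wholly at 0, as Cdh17 in MGE, cannot be. Cdh18 in CTX KCl library 2 measured 132 bp per Mb called, above the other CTX libraries at 105, 106 and 105. Cdh2 in MGE KCl library 2 measured 272, in the range of CTX. CTX KCl library 2 had the longest list of all and MGE KCl library 2 the longest of MGE. Pcdh20 in MGE KCl library 2 (8.58) and Cdh15 in unstimulated MGE library 1 (11.7) were the single MGE libraries with a peak at these genes.

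At Pcdh9 both KCl libraries lay below both unstimulated ones in CTX and above them in MGE. The lower CTX level, at a ratio of 0.887, was not called by limma. In CTX 12.9% of all tested genes had both KCl libraries below both unstimulated ones. The difference of the responses was 0.944 on the log2 scale and did not pass (limma adjusted p = 0.267).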

How the results depend on the processing

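Over 22 alternatives, the 20 called results of single genes gave 430 values, of which 427 kept their direction and 318 their call. The 3 that turned were Cdh15 (0.090) and Cdh17 (0.39) in MGE against CTX with 50 kb to each side, and Pcdh7 with KCl over both cultures when peaks needed a −log10 q of 5 or more (-0.65). Cdh13 and Cdh22 were not called, and in MGE against CTX Cdh13 turned to -0.026 at the stricter −log10 q and -0.35 without division by the called Mb. Cdh22 turned to -0.071 over the gene span and -0.26 without division. With KCl in CTX, Cdh15 turned to 0.024 with 50 kb and Pcdh7 to -1.30 at the stricter −log10 q. The causes were not tested.

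At the stricter −log10 q, called genes of the cadherin set fell from 15 to 0 in MGE against CTX, from 3 to 0 for KCl in MGE and from 2 to 0 for KCl over both cultures. There the genes with MGE above CTX fell from 2 to 0, with CTX above MGE from 7 to 2, and with KCl above in MGE from 11 to 7. CTX-only regions fell from 34 to 5, MGE-only regions from 13 to 0, and regions called with KCl alone from 21 to 7 in CTX and from 21 to 10 in MGE. A region rule of at least 50% cover left 16 CTX-only and 5 MGE-only regions. Without division, 8 genes were called in MGE against CTX (0 higher, 8 lower, against 2 and 13), 0 for KCl in MGE and 0 for KCl over both cultures. With equal called bases 1 was called for KCl in CTX (Pcdh18) and 1 in MGE (Cdh20), over both cultures 3 (Cdh20, Pcdh18 and Pcdh19) in place of Cdh8 and Pcdh7, and 1 had MGE above CTX. For KCl in MGE, 1 was called after centring on the library median and 1 without limma's trend. For KCl over both cultures, 1 was called with a pseudocount of 2 and 1 after centring.

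Leaving out each library in turn gave 11 to 16 called genes in MGE against CTX, 0 for KCl in CTX, 0 to 3 for KCl in MGE, 0 to 1 for the difference of responses and 0 to 3 for KCl over both cultures. Genes with MGE above CTX numbered 2 to 4, with CTX above MGE 7 to 12, with KCl above in CTX 7 to 17 and in MGE 11 to 19. A lone library left in a group was assumed to vary like the other groups.

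Over all genes, MGE against CTX gave 1674 higher and 2007 lower calls. There were 299 and 1800 without division, 1190 and 1583 with equal called bases, 109 and 219 at the stricter −log10 q, 1067 and 1320 over the gene span alone, and 1068 and 1253 without CTX KCl library 2. The median log2 difference of all genes moved from 0.12 to -0.30 without division and to -0.13 with equal called bases, so directions of small size are relative to the scaling. For KCl in MGE the 391 calls became 3 at the stricter −log10 q, 75 with equal called bases, 2 without division and 181 after centring, and 21 to 420 without a library. Over all alternatives, calls ranged from 0 to 317 for KCl in CTX (37 as reported), from 2 to 710 for KCl in MGE, from 0 to 45 for the difference of responses (6) and from 0 to 1273 for KCl over both cultures (750). Leaving out CTX KCl library 1 gave 0, 21, 0 and 44 in that order, and no other library left out gave fewer.

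With the replicate block, 15 genes were called in MGE against CTX (3 higher, 12 lower), 3 for KCl in MGE, 2 for KCl over both cultures and 0 in the other contrasts. Cdh6 and Cdh17 were lost, and Pcdh1 and Pcdh10 gained. Deviations of same-numbered libraries over 15537 genes correlated at 0.23 to 0.32 among CTX KCl, unstimulated CTX and MGE KCl, and at -0.12 to 0.030 between unstimulated MGE and these. The labels state no shared batch, and pairing was not taken as given because it was not seen in every pair of groups. List length and peak strength limit these results, since a region slightly below the calling threshold counts as 0.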
